A study of Arabidopsis thaliana with 22 samples.

Results

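The 79 loci described here are long noncoding RNAs of the Arabidopsis thaliana root that stood higher in the meristematic-elongation zone (MEZ) than in the differentiation zone (DZ) when no peptide was added. They were chosen from 5224 listed loci in 3 steps. Loci above 2% of the reads in any library were dropped, and levels were set as CPM, the reads of a locus scaled to 1000000 remaining reads per library. Of the 511 loci longer than 200 nt with a mean of at least 100 CPM over the 22 libraries, 84 had a log2 ratio of mean control DZ over mean control MEZ, computed on CPM + 10, of -1 or less in both genotypes. By name, 5 of these 84 (AT3G04615, AT4G06135, AT3G22121, AT5G00585 and AT4G22233) were left out by the rule. The control zone difference is therefore given below as a description, and no test of it is made. Membership depends on the scaling, and 38 loci met the rule when the dropped loci were kept in the library size.

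Roots of 11-day-old plants were cut into MEZ and DZ, and RNA was sequenced from wild-type Ws plants and from the proscoop12 mutant in the Ws background, after water (control) or 100 nM SCOOP12. The labels name no allele of proscoop12 and give no length of treatment. The 8 groups held 3 libraries each, except the Ws DZ control and Ws MEZ SCOOP12 groups of 2, which lack replicate 1. Replicates carry the numbers 1, 3 and 4, and no label says whether cultures were separate. The p-values below hold for the spread between these samples, which may be technical. The mutant is labelled as having a longer root than the wild type. All groups were made of dissected root segments with many cell types, so fewer cells of a type and less RNA per cell cannot be told apart. None of 13 protein-coding zone markers was among the listed loci, so the zone labels could not be checked against markers.

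The meristematic zone at the root tip holds dividing cells, which then lengthen in the elongation zone. In the differentiation zone growth has ended and root hairs, the endodermal barrier and vessels form. Long noncoding RNAs are transcripts without a recognised protein product, and many of them run antisense to a protein-coding gene. PROSCOOP12 encodes the precursor of SCOOP12, a secreted peptide that is perceived at the cell surface and is known for defence responses and for effects on root growth.

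RefSeq's annotation (TAIR10.1) matched all 79 loci by name, and 77 have the same length there as in the files. It classes 50 as lncRNA, 17 as misc_RNA, 8 as ncRNA, 3 as miRNA precursors and 1 (AT5G02575) as snoRNA. Their lengths ran from 210 to 4798 nt with a median of 599 nt, and 30 had more than 1 exon. They were spread over chromosomes 1 to 5 with 21, 13, 20, 10 and 15 loci.

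The 3 miRNA precursors are MIR835 (AT1G76062, chr1:28544454-28544853, minus strand), MIR5642a (AT3G06345, chr3:14196774-14197147, plus strand) and MIR822 (AT5G03552, chr5:897020-897356, minus strand). Their mature miRNAs are shown in RNA letters from 5′ to 3′ because they are the known products of these members, with the seed (bases 2 to 8) in capitals, as cut from RefSeq's TAIR10.1 genome at the annotated positions. The libraries measured the long precursor transcripts and not the mature miRNAs. All of these seeds differ from each other.
ath-miR835-5p: uUCUUGCAuauguucuuuauc
ath-miR835-3p: uGGAGAAGauacgcaagaaag
ath-miR5642a: uCUCGCGCuuguacggcuuu
ath-miR822-5p: uGCGGGAAgcauuugcacaug
ath-miR822-3p: uGUGCAAAugcuuucuacagg

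The promoters of the 4 most abundant members are shown because these loci carry most of the reads, together with that of AT1G18415, which was picked after its motifs were seen. Each window runs from 250 nt before to 50 nt after the annotated start in RefSeq's TAIR10.1. Capitals mark the telo-box (AAACCCTA), site II (TGGGCC or TGGGCT) and the E2F core (TTCCCGC or TTTGGCGC), searched on both strands. In Arabidopsis the telo-box and site II are known from promoters of ribosomal protein and proliferation genes, and E2F factors from control of DNA replication genes.
AT3G12965, chr3:4137625-4137924, minus strand: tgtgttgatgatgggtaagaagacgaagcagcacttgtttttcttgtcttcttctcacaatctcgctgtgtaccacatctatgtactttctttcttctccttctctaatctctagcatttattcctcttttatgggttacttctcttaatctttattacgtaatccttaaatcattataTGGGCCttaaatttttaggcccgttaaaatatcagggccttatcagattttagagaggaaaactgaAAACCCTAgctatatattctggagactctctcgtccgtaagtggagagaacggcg
AT1G79075, chr1:29745689-29745988, plus strand: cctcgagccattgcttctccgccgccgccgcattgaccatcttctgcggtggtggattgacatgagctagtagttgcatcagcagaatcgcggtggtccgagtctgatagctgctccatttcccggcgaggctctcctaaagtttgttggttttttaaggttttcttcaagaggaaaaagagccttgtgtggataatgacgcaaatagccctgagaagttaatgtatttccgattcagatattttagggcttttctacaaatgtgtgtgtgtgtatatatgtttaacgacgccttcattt
AT5G00395, chr5:4800682-4800981, minus strand: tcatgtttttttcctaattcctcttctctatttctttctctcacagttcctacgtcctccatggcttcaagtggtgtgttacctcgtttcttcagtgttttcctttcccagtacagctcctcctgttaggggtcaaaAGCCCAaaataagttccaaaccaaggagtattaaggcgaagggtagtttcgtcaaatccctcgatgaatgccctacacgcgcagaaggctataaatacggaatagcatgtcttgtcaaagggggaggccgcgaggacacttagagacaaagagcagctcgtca
AT5G34871, chr5:13084787-13085086, plus strand: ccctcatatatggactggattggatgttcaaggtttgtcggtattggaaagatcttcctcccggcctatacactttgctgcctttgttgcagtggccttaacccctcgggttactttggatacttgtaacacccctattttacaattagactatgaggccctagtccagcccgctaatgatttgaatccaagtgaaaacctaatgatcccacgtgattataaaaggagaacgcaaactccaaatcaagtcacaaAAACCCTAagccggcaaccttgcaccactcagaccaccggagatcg
AT1G18415, chr1:6345738-6346037, minus strand: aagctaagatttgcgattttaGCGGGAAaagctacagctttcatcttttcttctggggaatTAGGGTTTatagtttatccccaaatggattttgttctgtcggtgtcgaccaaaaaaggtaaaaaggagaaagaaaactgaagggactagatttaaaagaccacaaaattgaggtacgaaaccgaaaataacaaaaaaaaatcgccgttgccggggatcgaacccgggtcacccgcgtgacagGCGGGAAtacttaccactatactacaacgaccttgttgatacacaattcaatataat

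Over all 79 promoter windows, site II was found in 22 (27.8%), against 15.2% of 5181 windows of listed noncoding loci, 15.9% of the 44 loci higher in DZ and 21.7% of all protein-coding genes. Loci with steady levels in the controls held it in 30 of 120 windows, close to the members. The telo-box stood in 5 windows (6.3%), and in 6.1% of windows of listed noncoding loci. The E2F core stood in 4 windows (5.1%), those of AT1G15175, AT1G18415, AT2G09505 and AT5G03985, and in 1.3% of windows of listed noncoding loci. Its share was 2.3% in loci higher in DZ, 0.0% in steady loci, 1.9% in all protein-coding genes and 2.5% in all annotated genes. The MSA core (AACGG), the element of genes of the G2 and M phases, stood in 25.3% of member windows, 23.1% of windows of listed noncoding loci and 34.1% of those higher in DZ. The W-box (TTGACC or TTGACT), bound by WRKY defence factors, stood in 34.2%, 28.1% and 45.5% in the same order. Matches are letters in a window and not binding sites, and windows of neighbouring genes can overlap.

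Most members lie on or beside a coding gene. On the strand opposite to the member, 47 loci (59.5%) overlap a coding exon, and 18 of them over their whole length. Among the 511 loci that passed the length and level limits the share was 55.8%, and among the 44 loci higher in DZ by the mirrored rule it was 22.7%. On their own strand 9 members overlap a coding exon, and 6 of these 9 are also among the 47 with a coding exon opposite. No coding exon is overlapped by 29 members. Copies of at least 100 nt, or of 90% of the shorter sequence, at 95% identity or more were found in a coding transcript for 7 members and in another noncoding locus for 10. That left 18 members with neither a coding exon nor a copy. The kit kept strand information, but which strand was counted is not given in the sources used here, so reads of an antisense member and of the coding gene across from it cannot be told apart.

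Libraries differed in ways that touch the results below. The 6 dropped loci took 80.7% to 90.5% of reads, which left 74717 to 162745 reads per library, and the members held 3727 to 22243 of them. The mean per member was 11.9 to 38.7 reads per library from the lowest to the median member. The 2 mitochondrial rRNA loci among the dropped ones held 17.0% to 21.6% of all reads across the MEZ libraries. DZ controls held 35.8% to 43.7%. With SCOOP12 in DZ they took 46.7% and 37.9% in replicate 1 of Ws and proscoop12, and 19.1% to 24.8% in replicates 3 and 4, and their part in the results was not tested. File names give another group than the labels for 2 libraries, Ws DZ SCOOP12 replicate 3 and proscoop12 DZ control replicate 3, which are named for each other's group. The labels were kept, and results that change without these libraries or with their labels exchanged say so.

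As a group, the members took 16.6% to 19.9% of the remaining reads in Ws MEZ controls and 17.8% to 20.7% in proscoop12 MEZ controls, against 3.85% to 5.45% and 4.16% to 6.97% in the DZ controls. These values follow from the rule. In the SCOOP12 libraries, which entered the rule through the mean level and the 2% limit but not the zone ratio, the share was 12.9% to 13.4% in Ws MEZ and 11.9% to 17.7% in proscoop12 MEZ. It was 6.87% to 8.87% in Ws DZ and 7.31% to 9.83% in proscoop12 DZ with SCOOP12. In both genotypes the groups with SCOOP12 thus lay between the 2 controls, and all MEZ libraries lay above all DZ libraries. AT3G12965 alone held 29.1% of the members' reads, and without it the shares were 11.3% to 14.7% in MEZ controls, 7.70% to 13.2% in MEZ with SCOOP12, 2.79% to 5.29% in DZ controls and 4.46% to 7.01% in DZ with SCOOP12.

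**Figure D1:**
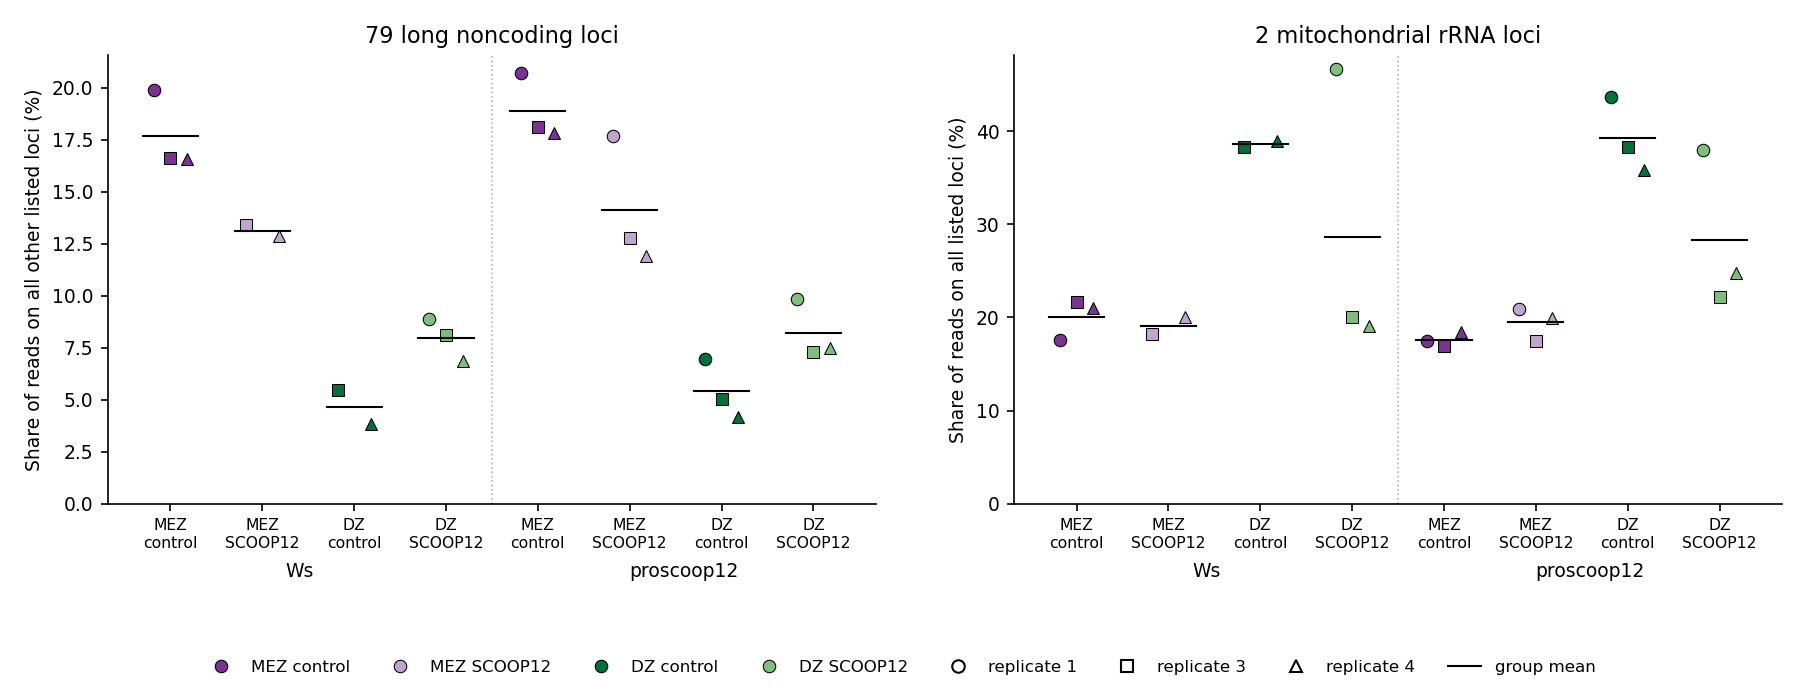
Share of reads per library for the 79 loci (left, % of reads on all loci that were not dropped) and for the 2 mitochondrial rRNA loci (right, % of reads on all listed loci), by group on the x axis. Each point is 1 library, its shape the replicate number and the line the group mean. The members' share runs from 3.85% in a DZ control to 20.7% in a MEZ control, and the mitochondrial share of DZ SCOOP12 replicate 1 (46.7% and 37.9%) stands above that of replicates 3 and 4 (19.1% to 24.8%).

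AT3G12965, a 374 nt spliced noncoding RNA (chr3:4136961-4137674, minus strand) that overlaps no coding exon and has no copy, was the most abundant member. It stood at 54159, 43253 and 45425 CPM in the Ws MEZ controls and at 60583, 46674 and 64812 CPM in the proscoop12 MEZ controls. In the DZ controls it stood at 15091 and 10566 CPM in Ws and 16799.5, 13669 and 9887 CPM in proscoop12. With SCOOP12 it stood at 39549 and 42917 CPM in Ws MEZ and 44920.2, 37441 and 41863 CPM in proscoop12 MEZ. In DZ with SCOOP12 it stood at 22874, 24231 and 24161 CPM in Ws and 28220.2, 21519.5 and 24902 CPM in proscoop12. Every DZ library with SCOOP12 lay above every DZ control and below every MEZ library.

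AT1G79075, a 290 nt spliced noncoding RNA (chr1:29745939-29746842, plus strand), also without a coding exon or copy, followed at a mean of 13359 CPM. Its levels were 22244, 20479 and 20076 CPM in Ws MEZ controls, 18837 and 15051 CPM in Ws MEZ with SCOOP12, 5829.6 and 2927 CPM in Ws DZ controls and 8372, 10130.5 and 8271 CPM in Ws DZ with SCOOP12. In proscoop12 they were 22077, 19870.3 and 26986, then 18839, 15769 and 14375, then 6793, 5891 and 3966, then 11009.7, 8583 and 7529 CPM in the same order. Replicate 4 was the lowest DZ control in both genotypes. Across the 22 libraries log2 CPM of AT1G79075 and AT3G12965 had a Pearson correlation of 0.979, the highest of any pair of members, as a description over libraries that share zones and depth.

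The other members among the 10 most abundant are partly tied to copies or to coding genes. AT5G00395 (424 nt, chr5:4800308-4800731, minus strand; mean 6908 CPM) shares sequence with the coding genes AT4G20690, AT4G20700 and AT5G14800, and AT3G00210 (2262 nt, mean 3938 CPM) with AT4G20953, so reads can be split between them. AT5G34871 (398 nt, mean 4135 CPM) overlaps no coding exon. Antisense to coding exons lie AT4G20362 (mean 2839 CPM, opposite RABE1b), AT1G35545 (2666 CPM, opposite AT1G35550, an elongation factor Tu domain protein, with a copy in the coding gene AT1G35540), AT1G67328 (2608 CPM, opposite AT1G67330, a glucuronoxylan methyltransferase-like protein), AT3G03475 (2571 CPM, opposite MTO3, an S-adenosylmethionine synthetase) and AT1G08657 (2394 CPM, opposite AT1G64190, a 6-phosphogluconate dehydrogenase). In these libraries the mean over members had a median of 396 CPM and a lowest value of 119 CPM, and 24 members reached 1000 CPM.

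In the controls, every MEZ library stood above every DZ library for 76 members in Ws (35% of all 795 tested loci did so), for 63 in proscoop12 (22.4%) and for 60 in both (16%), counts that the rule favours. The highest of the 22 libraries was a MEZ control for 61 members, a MEZ library with SCOOP12 for 18 and a DZ library for 0. The rule favours these counts as well, and they were not made over all loci. At the edge of the rule, AT2G00560 (log2 DZ over MEZ of -1.01 in Ws), AT1G08293 (-1.04 in proscoop12) and AT2G00870 (-1.04 in Ws) lay just inside. AT4G08225 (-0.999 in proscoop12), AT1G08037 (-0.98) and AT3G07315 (-0.98) lay just outside. On the level limit AT4G05525 (119 CPM), AT5G60022 (125 CPM) and AT3G04975 (125 CPM) were just inside, and AT5G02755 (99.97 CPM), AT2G09945 (98.1 CPM) and AT5G01315 (96.2 CPM) just outside. On length AT3G06962 (210 nt), AT3G02025 (221 nt) and AT4G07705 (224 nt) were just inside, and AT3G08945 (195 nt), AT4G08055 (193 nt) and AT2G09785 (168 nt) just outside.

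With SCOOP12 the members remained mostly higher in MEZ, but by less. Their median log2 difference of group means, DZ over MEZ on CPM + 10, was -0.59 in Ws and -0.84 in proscoop12 with the peptide, and -1.90 and -1.59 in the controls that chose them. Over all 511 loci the medians with SCOOP12 were -0.03 and -0.07. In the SCOOP12 libraries 14 of 79 members were still at or under -1 in both genotypes (19 of all 511 loci), and 69 were under 0 in both (205 of 511). The difference stood higher with SCOOP12 than without in both genotypes for 72 of 79 members (91.1%), for 48.1% of all 511 loci, for 39.3% of 122 steady loci and for 2 of the 44 loci higher in DZ. Members were picked as extremes of the control libraries, which favours such a shift, and that share of it was not tested. In Ws the MEZ controls and DZ SCOOP12 hold replicate 1, which the DZ controls and MEZ SCOOP12 lack. The median member stood at 397, 272 and 209 CPM in replicates 1, 3 and 4 of Ws DZ with SCOOP12. The part of this imbalance in the Ws shift was not tested.

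**Figure D2:**
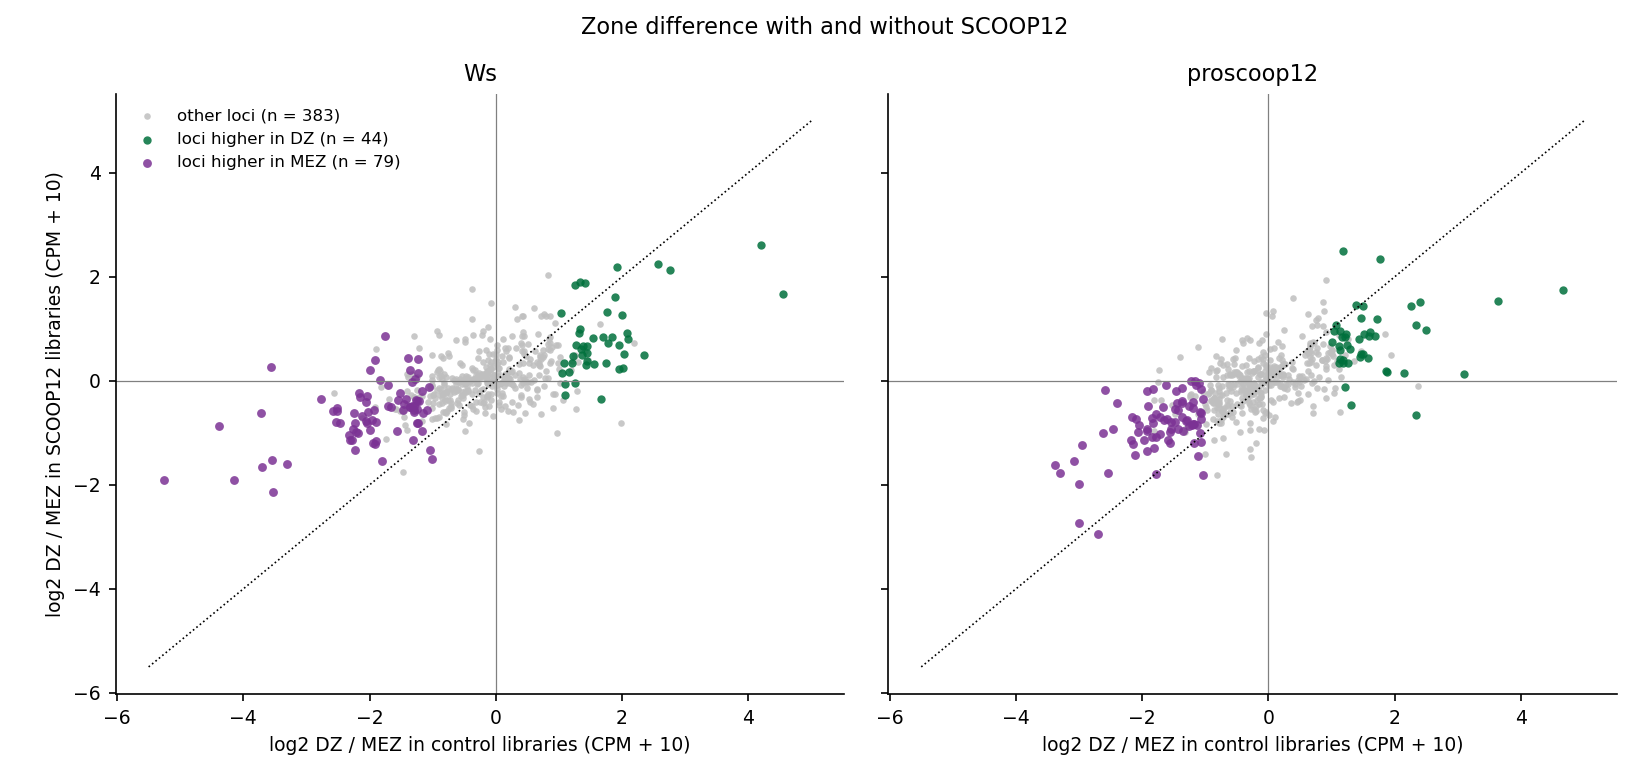
Zone difference of each locus (log2 of mean DZ over mean MEZ, CPM + 10) in control libraries (x axis) and in SCOOP12 libraries (y axis), for Ws (left) and proscoop12 (right), with the 5 loci left out by the rule not drawn. Purple points are the 79 members, green points the 44 loci higher in DZ and grey points the other 383 loci; on the dotted line both differences are equal. The members lie at -1 or lower on the x axis by the rule, with medians of -0.59 and -0.84 on the y axis.

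Whether members differ between zones in the presence of SCOOP12 was tested in the 11 SCOOP12 libraries, whose zones the rule did not compare. In the edgeR quasi-likelihood test, with p-values adjusted after Benjamini and Hochberg over 795 loci, 4 of 79 members were lower in DZ in Ws and 4 in proscoop12. The share of all tested loci called lower was 0.881% in Ws and 0.755% in proscoop12. No member was called higher in DZ, against 0.126% and 0.252% of all loci. An unadjusted p under 0.05 was found for 20 members in Ws (10.2% of all loci) and 35 in proscoop12 (15.8%). With the replicate number as a block, which pairs the proscoop12 samples, the counts were 22 in Ws and 30 in proscoop12, with 20 members in both. Of all loci 4.03% and 5.03% were called lower, and the share called in both was not counted. The fitted log2 fold change was below 0 for 69 members in Ws and 73 in proscoop12, against 49.3% and 49.7% of all loci. The medians were -0.61 and -0.76, against 0.00 over all tested loci in both. With the block they were -0.81 in Ws and -0.75 in proscoop12, against -0.04 and 0.01 over all tested loci. Every DZ library lay below every MEZ library for 38 members in Ws (13.3% of all tested loci did so), for 28 in proscoop12 (9.31%) and for 22 in both (4.53%). Without the 2 libraries with disagreeing names the Ws count without the block was 0 and the proscoop12 count 5, and 0 was also the Ws count without replicate 1 of DZ SCOOP12. Of all loci, 0.508%, 1.14% and 0.0% were called in either direction, in the same order. Without the block, leaving out any 1 library gave 0 to 1 in Ws. Each of the 4 calls there was lost in each of the 5 such fits. The 1 call, without Ws DZ SCOOP12 replicate 3, was AT1G19968. In proscoop12 it gave 1 to 6, with 2 without MEZ SCOOP12 replicate 1 and 1 without DZ SCOOP12 replicate 3. AT5G09595 was the member called in all 6 of them.

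AT5G09595, a 1637 nt RNA (chr5:26476110-26477746, minus strand), passed in both genotypes. Its call in Ws was lost in every fit without 1 library, as said above. It lies opposite GMD1, a GDP-mannose dehydratase on the route to GDP-fucose for cell wall sugars, and shares 25.8% of its length with AT5G66290 on its own strand. With SCOOP12 it stood at 2022 and 2463 CPM in Ws MEZ and 3883, 2052 and 1968 CPM in proscoop12 MEZ. It stood at 708, 625 and 774 CPM in Ws DZ and 675, 577 and 728 CPM in proscoop12 DZ. The zones did not overlap, and it was lower in DZ by edgeR in Ws (log2 fold change -1.61, SE 0.31, adjusted p = 0.0175) and in proscoop12 (log2 fold change -1.87, SE 0.29, adjusted p = 0.00204).

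AT2G00870, a 3992 nt RNA (chr2:14735982-14740065, plus strand) opposite AT2G34930, a leucine-rich repeat disease resistance family gene, passed in both genotypes too, with the same loss in Ws. In proscoop12 its call was lost without MEZ SCOOP12 replicate 1 or DZ SCOOP12 replicate 3. It stood at 850.0 and 1107 CPM in Ws MEZ and 1473, 909 and 723 CPM in proscoop12 MEZ with SCOOP12. In DZ with SCOOP12 it stood at 462, 360.2 and 326 and 422, 369 and 328 CPM. The zones did not overlap, with edgeR values for Ws of log2 fold change -1.31, SE 0.27, adjusted p = 0.0238, and for proscoop12 of log2 fold change -1.36, SE 0.25, adjusted p = 0.00788. It was one of the members just inside the control limit, and its zone difference was more negative with SCOOP12 (-1.33 and -1.45) than without (-1.04 and -1.12).

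In Ws, AT2G00560 (681 nt, no coding exon) and AT4G04455 (423 nt) also passed in the fit of all libraries. AT2G00560 stood at 791 and 904 CPM in MEZ and 225, 338 and 319.5 CPM in DZ of Ws with SCOOP12 (edgeR log2 fold change -1.43, SE 0.32, adjusted p = 0.0314). AT4G04455 lies wholly opposite GRH1, an F-box protein of the auxin receptor family, and stood at 283 and 393 CPM in MEZ and 107, 14.7 and 86.0 CPM in DZ (edgeR log2 fold change -2.24, SE 0.54, adjusted p = 0.0456). Neither locus overlapped between the zones in Ws. In proscoop12 the same contrast gave log2 fold changes of -1.06 (SE 0.29) for AT2G00560 and -1.79 (SE 0.46) for AT4G04455, which passed with the block only.

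In proscoop12, AT1G19968 (725 nt, chr1:6930261-6930985, plus strand, no coding exon or copy) had the most negative zone difference of all members with SCOOP12 when averaged over both genotypes (-2.31). In proscoop12 it stood at 829, 759 and 409 CPM in MEZ and 105, 61.5 and 109 CPM in DZ (edgeR log2 fold change -2.73, SE 0.52, adjusted p = 0.00788). Its Ws levels were 479 and 702 CPM in MEZ and 129, 257 and 67.6 CPM in DZ with SCOOP12. AT3G09965, opposite scpl40, a serine carboxypeptidase-like gene, stood at 513, 196.8 and 218 CPM in MEZ and 63.3, 30.8 and 0 CPM in DZ of proscoop12 (edgeR log2 fold change -3.27, SE 0.65, adjusted p = 0.00906). That DZ group held 10 reads of AT3G09965 in 3 libraries, so the size of the change is loosely set. Its call was lost without proscoop12 MEZ SCOOP12 replicate 1 or DZ SCOOP12 replicate 3, and that of AT1G19968 without the latter.

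AT5G09745, a 575 nt RNA with a copy in the noncoding locus AT5G09765, also ranked among the 5 most negative zone differences with SCOOP12, at 43.5 to 185 CPM over MEZ and 0 to 52.7 CPM over DZ libraries, with an overlap in proscoop12. At the other end, AT3G01995 (mean log2 difference over the genotypes of 0.34), AT3G02832 (0.22), AT3G00260 (0.04), AT3G06325 (0.02) and AT3G02025 (-0.06) had the least negative or most positive zone difference with SCOOP12. AT3G02832 holds 2 annotated snoRNA loci on its own strand (AT3G01145 and AT3G01155) and stood at 249.9 to 513 CPM in MEZ and 203 to 601 CPM in DZ with SCOOP12, with the zones overlapping. AT3G02025, opposite AT3G07600, a heavy metal transport family gene, and on the strand of AT3G07590, stood at 78.4 to 218 CPM in MEZ and 51.5 to 274 CPM in DZ, also overlapping. A zone difference that differs between genotypes with SCOOP12 was called for 0 of 79 members by edgeR (0.0% of all loci) and for 0 by DESeq2. An unadjusted p under 0.05 was found for 1 member, AT3G09965, and 1.38% of all loci.

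In DZ, SCOOP12 raised 10 of 79 members and lowered 0, averaged over both genotypes. In the edgeR test 2.39% of all 795 loci were called higher and 1.38% lower, and the members' median log2 fold change was 0.51 against 0.09 over all loci. Of the 79, 11 had a log2 fold change below 0 (41.3% of all loci), and 28 an unadjusted p under 0.05 (16.2%). The same DZ controls had chosen the members as low in DZ, so these counts are not independent of the choice. With the replicate number as a block 17 members were called higher (6.04% of all loci). Their median log2 fold change over all 79 was smaller with the block, 0.37 against 0.07 over all loci. The count was 4 without the 2 libraries with disagreeing names, 0 with their labels exchanged, 1 without Ws DZ control replicate 4, 5 without Ws DZ SCOOP12 replicate 3, and 4 without Ws DZ SCOOP12 replicate 4. Without replicate 1 of DZ SCOOP12, whose mitochondrial share stood apart, it was 11, with 5.87% of all loci called in either direction.

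AT1G07937, a single-exon RNA (chr1:20093470-20093717, plus strand) that overlaps no coding exon, had the smallest p. It stood at 76.3 and 59.7 CPM in Ws DZ controls and 89.0, 26.7 and 89.4 CPM in proscoop12 DZ controls, and at 225, 360.2 and 184.3 and 168.7, 399.9 and 277 CPM with SCOOP12. Controls and treated libraries did not overlap (edgeR log2 fold change 1.91, SE 0.34, adjusted p = 0.0028), and it was called in each of the 11 fits that left out 1 library. With the labels of the 2 libraries with disagreeing names exchanged, neither AT1G07937 nor any other locus was called in DZ. AT3G06962, the shortest member at 210 nt, stood at 42.4 and 0 CPM and 19.8, 35.6 and 33.5 CPM in the controls. With SCOOP12 it stood at 53.7, 147 and 135 CPM in Ws and 137, 154 and 226 CPM in proscoop12 (edgeR log2 fold change 2.39, SE 0.48, adjusted p = 0.00555). Its control values rest on 5 reads in Ws and 9 in proscoop12, and the groups did not overlap. The log2 fold change was 4.56 without Ws DZ control replicate 3, and 1.94 without Ws DZ control replicate 4, where the call was lost (edgeR adjusted p = 0.0542).

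The most abundant members rose by less than these. AT3G12965, with the values given above, rose in DZ (edgeR log2 fold change 0.81, SE 0.16, adjusted p = 0.00554), and so did AT1G79075 (edgeR log2 fold change 0.79, SE 0.18, adjusted p = 0.0146). The call of AT3G12965 was lost without Ws DZ control replicate 4, and that of AT1G79075 without this library or without Ws DZ SCOOP12 replicate 3 or 4. AT5G00395 stood at 3432 and 2757 and 4351, 3827 and 2525 CPM in the DZ controls of Ws and proscoop12, and at 4841, 6668 and 5585 and 6443, 5783 and 6517 CPM with SCOOP12 (edgeR log2 fold change 0.77, SE 0.17, adjusted p = 0.0126). AT3G00850, which overlaps the coding gene AT3G48630 on its own strand, ranged from 555 to 949 CPM in the controls and 1061 to 1635 CPM with SCOOP12 (log2 fold change 0.77, SE 0.18). In each of these the DZ groups did not overlap.

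The other members that rose in DZ were AT2G00480, AT5G36002, AT1G18415 and AT2G00870. AT2G00480, a 727 nt RNA that overlaps an exon of AT2G07715 over 18.2% of its length, ranged from 85.3 to 287 CPM in the controls and 283 to 504 CPM with SCOOP12 (edgeR log2 fold change 1.16, SE 0.25, adjusted p = 0.00917), and these ranges overlap at their ends. AT5G36002, opposite a RING/U-box gene, ranged from 42.7 to 136 CPM in the controls and 193 to 295 CPM with SCOOP12 (edgeR log2 fold change 1.37, SE 0.34, adjusted p = 0.0202). AT1G18415, opposite the aluminum-activated malate transporter family gene AT1G18420 and with the E2F cores shown above, ranged from 313 to 485 CPM in the controls and 569 to 859 CPM with SCOOP12 (edgeR log2 fold change 0.75, SE 0.21, adjusted p = 0.0429). The call of AT2G00870 in DZ did not hold in any fit without 1 library, and that of AT1G18415 held in 1 of 11. AT5G36002 was called in 6 of 11, and AT5G00395 and AT3G00850 in 8 of 11, lost in the same 3 fits as AT1G79075. The call of AT2G00480, like that of AT3G12965, failed when replicate 4 of the Ws DZ controls was left out.

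In MEZ, SCOOP12 lowered 4 members and raised 1. In the edgeR test 0.629% of all loci were called lower and 2.26% higher. The median log2 fold change of the members was -0.34 against -0.02 over all 795 loci, and 71 of 79 were below 0 (51.2% of all loci). An unadjusted p under 0.05 was found for 19 members (17.2% of all loci). The MEZ controls had chosen the members as high in MEZ, so this count too is not independent of the choice. With the replicate number as a block 10 members were called lower and 2 higher, with 2.64% and 4.91% of all loci. The members' median log2 fold change was smaller with the block, -0.29 against -0.02 over all loci. Without the block, leaving out 1 library at a time gave 1 to 6 calls in all. The count was 1 without Ws MEZ SCOOP12 replicate 3 and 2 without Ws MEZ SCOOP12 replicate 4. It was 3 without Ws MEZ control replicate 4, proscoop12 MEZ control replicate 3 or proscoop12 MEZ SCOOP12 replicate 3.

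AT2G00870 was the member that rose in MEZ. It stood at 449.8, 435 and 375 CPM in Ws MEZ controls and 558, 541 and 376 CPM in proscoop12 MEZ controls, below every MEZ library with SCOOP12 given above (edgeR log2 fold change 1.27, SE 0.18, adjusted p = 0.000276). In DZ it ranged from 154 to 277 CPM in the controls and 326 to 462 CPM with SCOOP12 (log2 fold change 0.74, SE 0.20, edgeR adjusted p = 0.0379). It was the only member called in both zones without the block, and its call in MEZ held in all 11 fits that left out 1 library. With the block AT4G03985, opposite the chitinase family gene AT4G01700, was the second member called higher in MEZ (edgeR log2 fold change 1.18, SE 0.24, adjusted p = 0.00342).

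The members that fell in MEZ were AT3G05905, AT3G00260, AT1G76878 and AT3G01995. AT3G05905, a 2513 nt RNA opposite AT3G05900, a neurofilament-like protein gene, stood at 3765, 3305 and 3935 CPM in Ws and 3361, 4014 and 2208 CPM in proscoop12 MEZ controls. With SCOOP12 it stood at 1172 and 1380.2 and 2313, 1377 and 1097 CPM, apart in Ws and overlapping in proscoop12 (edgeR log2 fold change -1.14, SE 0.23, adjusted p = 0.00642). In DZ its log2 fold change was -0.25 (SE 0.23).

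AT1G76878, opposite AT1G76880, a homeodomain-like gene, stood at 2012, 2375 and 2650.0 and 1743, 2943 and 2440.2 CPM in the MEZ controls of Ws and proscoop12. With SCOOP12 it stood at 1133 and 1261 and 1364, 928 and 1297 CPM, and the groups did not overlap (edgeR log2 fold change -0.86, SE 0.20, adjusted p = 0.021). AT3G00260, a 404 nt RNA without a coding exon or copy, ranged from 294 to 1458 CPM in MEZ controls and 60.9 to 513 CPM with SCOOP12 (edgeR log2 fold change -2.16, SE 0.44, adjusted p = 0.00642). AT3G01995, opposite the maternal effect embryo arrest gene AT3G07510, ranged from 152 to 426 CPM in the controls and 58.6 to 175 CPM with SCOOP12 (edgeR log2 fold change -1.51, SE 0.40, adjusted p = 0.0406). For both of these the groups were apart in Ws and overlapped in proscoop12. The call of AT3G05905 was lost without Ws MEZ SCOOP12 replicate 3, and that of AT3G00260 without Ws MEZ SCOOP12 replicate 3 or 4. Of 11 fits without 1 library, AT1G76878 was called in 5 and AT3G01995 in 2.

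**Figure D3:**
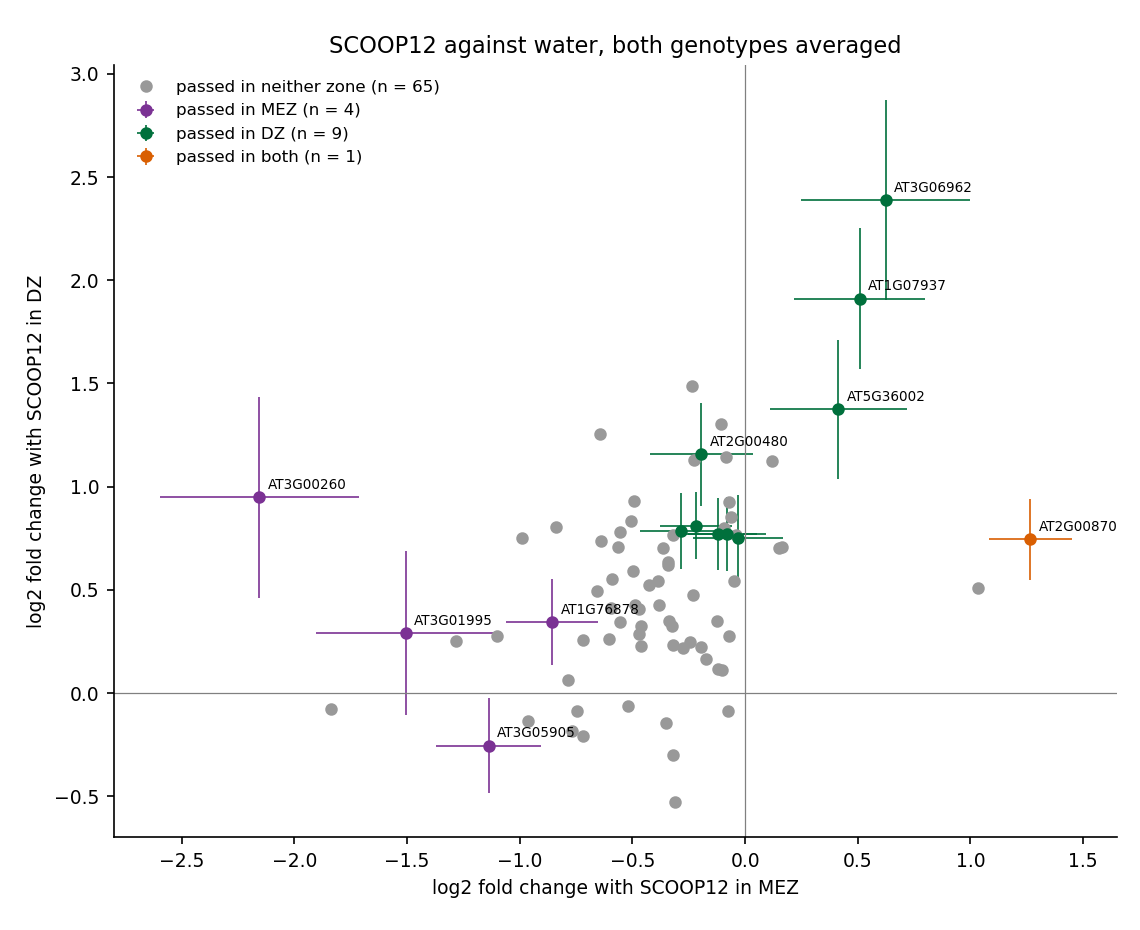
Log2 fold change of each of the 79 members with SCOOP12 against water in MEZ (x axis) and in DZ (y axis), averaged over genotypes, from edgeR. Coloured points passed at an adjusted p under 0.05, with bars for the SE; the unlabelled green points are AT3G12965, AT5G00395, AT3G00850, AT1G79075 and AT1G18415. Only AT2G00870 passed in both zones, while 9 passed in DZ alone and 4 in MEZ alone.

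**Figure D4:**
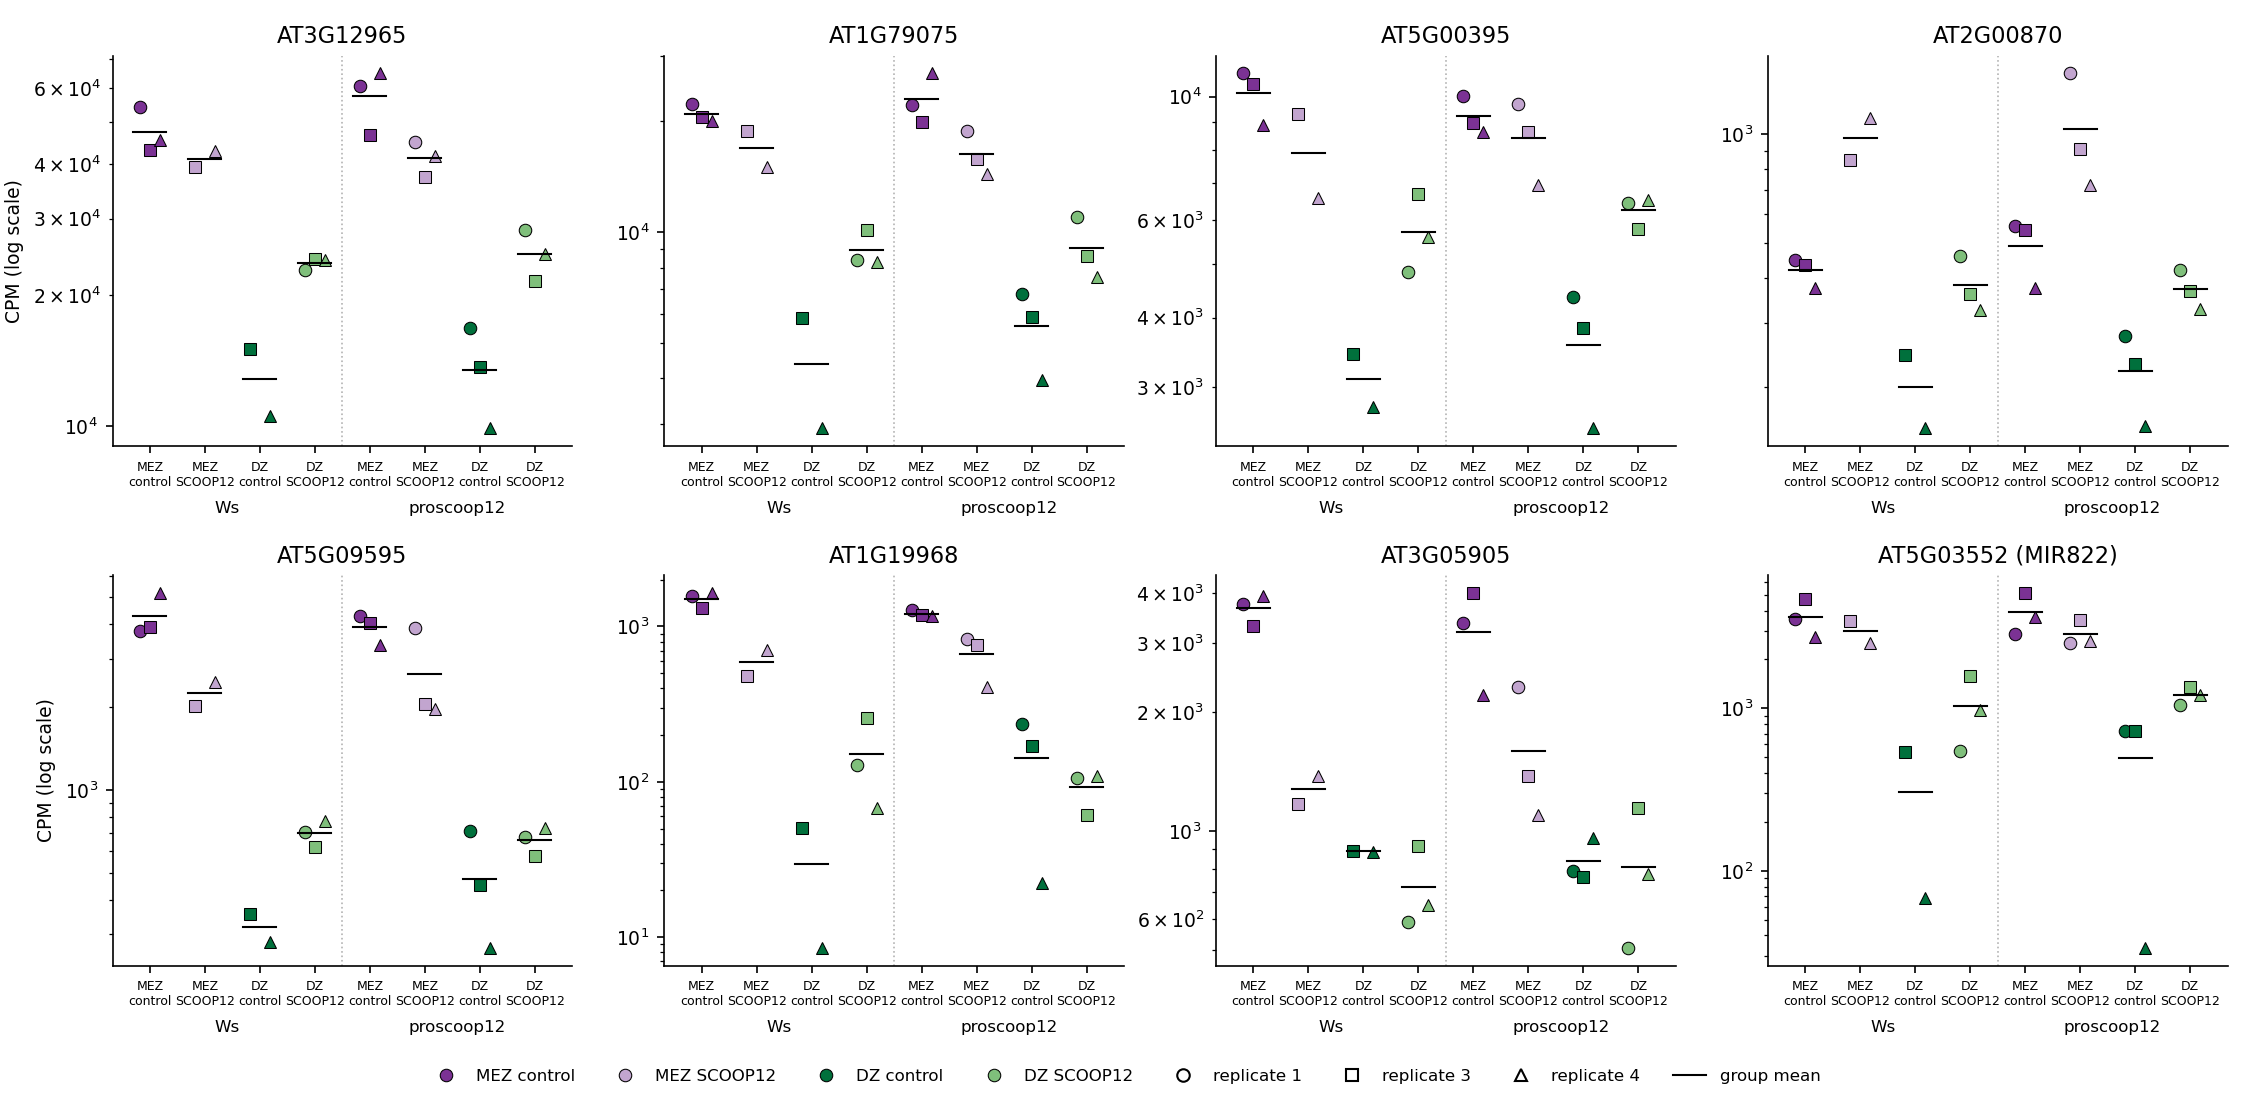
CPM (log scale) of 8 members in every library, by group on the x axis. Each point is 1 library, its shape the replicate number and the line the group mean. AT3G12965, AT1G79075 and AT5G00395 lie higher in DZ with SCOOP12 than in DZ controls, AT3G05905 lies lower in MEZ with SCOOP12 than in most MEZ controls, and AT2G00870 lies higher with SCOOP12 in both zones.

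Scaling bears on the size of these medians. With the library sizes of the rule and no further scaling, the median log2 fold change of all loci moved from -0.02 to -0.15 in MEZ and from 0.09 to 0.18 in DZ, and those of the members to -0.46 and 0.63. The members' sign was kept relative to these shifts. For the 44 loci higher in DZ the medians were 0.75 in MEZ, with 7 called higher and 0 lower, and -0.28 in DZ, with 0 called higher and 6 lower. Of all 795 loci 2.26% were called higher and 0.629% lower in MEZ, and 2.39% and 1.38% in DZ. The same controls had chosen the 44 loci as high in DZ and low in MEZ, so these counts are not independent of the choice either.

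No member was called for a SCOOP12 response that differs between the genotypes. By edgeR 0 of 79 passed in MEZ and in DZ (0.0% of all loci in each), 0 and 3 reached an unadjusted p under 0.05, against 1.64% and 2.26% of all loci, and DESeq2 called 0 in each. As proscoop12 minus Ws, the members with an unadjusted p under the threshold in DZ were AT3G09965 (log2 fold change -4.55, SE 1.39), AT1G19968 (-2.94, SE 0.92) and AT1G05562 (-2.16, SE 0.96). These fits did not use the block, and the Ws DZ controls lack replicate 1. AT1G05562 stood at 195 and 128 CPM there, and at 1206, 400 and 268 CPM in proscoop12 DZ control replicates 1, 3 and 4. The members' median difference in DZ was -0.19 without the block and -0.08 with it, against -0.03 over all loci in both. AT1G19968 stood at 50.8 and 8.53 CPM in Ws DZ controls and 129, 257 and 67.6 CPM with SCOOP12. In proscoop12 it stood at 237, 169.1 and 22.3 CPM and 105, 61.5 and 109 CPM, with replicate 4 the lowest control in both genotypes. The 3 members with the smallest p in MEZ were AT4G07705 (log2 fold change 1.04, SE 0.62), AT5G10278 (-1.33, SE 0.82) and AT2G00560 (-0.65, SE 0.42).

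Genotype, averaged over treatments, was called for no member either. By edgeR 0 of 79 passed in MEZ and 0 in DZ (0.126% of all loci in each), 2 in each had an unadjusted p under 0.05 (2.52% and 2.89% of all loci), and DESeq2 called 0. In MEZ these were AT2G00770 (log2 fold change 0.65, SE 0.28) and AT1G04053 (0.64, SE 0.30), followed by AT3G09965 (0.80, SE 0.41). In DZ they were AT3G00260 (1.09, SE 0.49) and AT1G04183 (0.69, SE 0.32), followed by AT1G05562 (0.78, SE 0.48). The median log2 fold change of the members was 0.09 in MEZ and 0.14 in DZ, against 0.00 and 0.03 over all loci. With the replicate number as a block it was -0.004 in MEZ and 0.04 in DZ, against -0.02 and 0.03 over all loci. AT3G12965, for which depth was highest, had 0.12 (SE 0.16) in MEZ and 0.02 (SE 0.16) in DZ.

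Of the miRNA precursors shown above, MIR822 had the widest range. In Arabidopsis miR822 is known to target a family of DC1 domain protein genes. Its precursor stood at 3539.6, 4700.3 and 2744 CPM in Ws and 2882, 5144 and 3656 CPM in proscoop12 MEZ controls, and at 542 and 68.3 and 722, 721 and 33.5 CPM in the DZ controls. With SCOOP12 it stood at 3449 and 2522 and 2509, 3495 and 2586 CPM in MEZ, and at 547, 1581 and 983 and 1055, 1354 and 1216 CPM in DZ. Replicate 4 was far below the other DZ controls in both genotypes, and no such gap appeared with SCOOP12. In DZ with SCOOP12 its log2 fold change was 1.49 (SE 0.49, edgeR adjusted p = 0.117) without the block and 1.62 (SE 0.37, adjusted p = 0.00563) with it.

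MIR835 lies on the strand of the coding gene AT1G76065 and ranged from 248.6 to 415 CPM in MEZ controls, 102 to 170.7 CPM in DZ controls, 167 to 342 CPM in MEZ with SCOOP12 and 84.6 to 211 CPM in DZ with SCOOP12. MIR5642a and its overlapping neighbour AT3G06325 lie 529 and 811 nt before the nuclear 18S rRNA gene AT3G41768, and they share sequence with AT2G01008, AT2G16586 and AT2G03855, so their reads may belong to several copies. MIR5642a ranged from 1416 to 2666 CPM in MEZ controls, 445 to 1064 CPM in DZ controls, 1439 to 1713 CPM in MEZ with SCOOP12 and 635 to 1243 CPM in DZ with SCOOP12. AT3G06325 ranged from 223 to 720.1 CPM in MEZ and 138 to 239 CPM in DZ controls, and from 239 to 362 and 215 to 447 CPM with SCOOP12. Annotated snoRNAs also lie inside other members on their own strand, 4 in AT5G15022 and 1 in AT3G04975.

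The coding genes opposite the antisense members fall into several roles, sorted by hand after the list was known, and 26 members were placed. In cell wall and sugar nucleotide genes, the log2 zone difference of AT5G09595 (opposite GMD1) was -3.71 in Ws and -3.00 in proscoop12 without the peptide, and -1.66 and -1.98 with it. For AT3G09875, opposite AUD1, an enzyme of UDP-xylose synthesis, it was -2.04 in Ws and -1.57 in proscoop12 without the peptide, and -0.29 and -0.98 with it. For AT1G07893, opposite MUM4, a rhamnose synthase of seed coat mucilage, it was -1.71 in Ws and -1.08 in proscoop12 without the peptide, and -0.07 and -0.995 with it. For AT5G60022, opposite LAC17, a laccase of lignin formation, it was -1.99 in Ws and -1.61 in proscoop12 without the peptide, and 0.21 and -0.73 with it. In Ws DZ with SCOOP12 it stood at 161, 22.1 and 30.7 CPM in replicates 1, 3 and 4. Ws MEZ with SCOOP12, which lacks replicate 1, stood at 48.9 and 71.4 CPM. Replicate 1 of Ws DZ SCOOP12 was also the highest for AT1G07893 (515, 191 and 141 CPM) and AT3G09875 (902, 456 and 307 CPM). For AT5G09595 and AT1G67328 it lay between the other replicates. AT5G03985, opposite DGR2 (a DUF642 protein), and AT1G67328 complete this set of 6, whose differences with SCOOP12 ran from -1.66 to 0.21 in Ws and from -1.98 to -0.73 in proscoop12.

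In UDP-glycosyltransferases, which attach sugars to small molecules, AT1G05562 lies opposite UGT75B1, AT2G09505 opposite UGT74F1 and AT2G31751 opposite UGT74D1. For AT1G05562 the zone difference was -3.73 in Ws and -1.78 in proscoop12 without the peptide, and -0.62 and -1.79 with it. In Ws with SCOOP12 it stood at 1288, 485 and 295 CPM in DZ replicates 1, 3 and 4. In MEZ it stood at 1153 and 976 CPM in replicates 3 and 4, with no replicate 1. With the replicate number as a block, the edgeR log2 fold change of DZ over MEZ with SCOOP12 was -1.29 (SE 0.29) in Ws. In proscoop12 it was -1.43 (SE 0.26). For AT2G31751 it was -2.22 in Ws and -2.14 in proscoop12 without the peptide, and -1.33 and -1.20 with it. In receptors and signalling, members lie opposite LYM1 (a LysM protein that binds peptidoglycan; AT1G05687), HERK1 (a receptor kinase of cell elongation; AT3G07375), GRH1 (AT4G04455), CAM2 (calmodulin; AT2G09225) and AT2G34930 (AT2G00870). Their differences with SCOOP12 ran from -2.13 to -0.20 in Ws and from -1.77 to -0.62 in proscoop12.

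In cytoskeleton and trafficking genes, members lie opposite ADF11 (an actin depolymerizing factor; AT1G04053), TUA2 (alpha tubulin; AT1G07603), RABE1b (AT4G20362), PRA1.B6 (a prenylated RAB acceptor; AT5G01295) and EMP1 (an endomembrane protein; AT5G01835). Their control differences ran from -2.58 to -1.84 in Ws and from -2.62 to -1.66 in proscoop12, and those with SCOOP12 from -1.14 to 0.01 and from -1.13 to -0.75. In metabolism, members lie opposite MTO3 (AT3G03475), GAPCP-1 (a plastid glycolytic dehydrogenase; AT1G79529), AtIPCS3 (an inositol phosphorylceramide synthase; AT2G08345), 2A6 (an oxygenase; AT1G04183) and scpl40 (AT3G09965). AT1G07983 lies wholly opposite the gene of gamma-H2AX, the histone variant of DNA breaks, and its difference was -2.76 in Ws and -1.81 in proscoop12 without the peptide, and -0.35 and -1.29 with it. In Ws DZ with SCOOP12 it stood at 386, 95.6 and 92.2 CPM in replicates 1, 3 and 4, and Ws MEZ with SCOOP12 lacks replicate 1. AT2G09975 lies wholly opposite SWA1, a protein of ribosomal RNA processing, and its difference was -1.25 in Ws and -1.90 in proscoop12 without the peptide, and -0.39 and -0.47 with it.

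Antisense members and members clear of coding exons are given side by side. With SCOOP12 the median fitted log2 zone difference was -0.61 for the 47 antisense members and -0.63 for the 29 without a coding exon in Ws, and -0.83 and -0.65 in proscoop12. SCOOP12 in MEZ gave medians of -0.46 and -0.23, and in DZ of 0.43 and 0.75, in the same order, and 4 antisense members and 5 clear ones were called in DZ. These groups were not tested against each other. Beside AT1G79075 and AT3G12965, the pairs most alike over the 22 libraries were AT1G07603 with AT1G35545 (Pearson r = 0.974), AT1G35545 with AT5G01835 (0.973) and AT1G35545 with AT3G09875 (0.973), as a description with no test.

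None of the members is among 8 long noncoding RNAs with described roles that were looked up. Of these, 5 were listed and 2 passed the filter: ASCO, a regulator of splicing in lateral root formation, at a mean of 342 CPM with control zone differences of 2.76 in Ws and 2.41 in proscoop12, and ELENA1, an RNA of immune signalling, at a mean of 45.4 CPM. Neither was called in any of the comparisons above.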

How the data were processed

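Root RNA of 22 libraries (8 groups of 2 or 3) was measured by paired-end sequencing of stranded mRNA libraries, per the labels' protocols. The deposited files hold, for 5224 noncoding loci each, estimated counts and TPM that the authors made with Salmon, per the file headers and the submitters' processing notes, which also name DESeq2. For versions, index, genome build and strand setting, nothing is given in the sources used here. TPM was not used further, since it sums to the same total in every library.

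CPM and membership followed the rule stated in the report. The members and lists were chosen with earlier results of these data known. Estimated counts, of which 1.28% to 2.01% per library were not whole, were rounded and tested with edgeR 4.0.16 (R 4.3.3, limma 3.58.1; TMM scaling, filterByExpr, 1 mean per group over all 22 libraries, quasi-likelihood test, Benjamini-Hochberg adjustment over 795 loci, threshold 0.05), after a test on simulated data. Levels are printed in the rule's CPM and fold changes come from the fit. Each SE comes from the log2 fold change and the F value of the quasi-likelihood test, which includes the spread between libraries. Statements on depth cover counting error only. DESeq2 1.42.0, other scaling, no filter, left-out libraries, exchanged labels and a replicate block were alternatives. Residuals of same-numbered samples correlated in every pair (0.136 to 0.678 over the comparisons with 3 or more pairs, 0.287 to 0.294 over the 2 pairs of the Ws zone comparison), so the numbers pair the samples by the data. The labels do not say what a number stands for. Unless the block is named, the fits above did not use this pairing. Fits that left out 1 library were run without the block only.

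Coordinates and sequences are those of RefSeq's TAIR10.1, in which 5182 of the 5224 loci were found by name and 99.3% of these had the same length. Copies were searched with blastn 2.17.0, and other steps used Python 3.11.15 with pandas 2.3.3 and numpy 2.4.6. Named with values were the 10 most abundant members, the 5 with the most negative and the 5 with the most positive zone difference under SCOOP12, members called in a comparison (or the 3 with the smallest p where none was), members with a gene name or a named coding gene opposite, and loci at the edges of the rule.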

Additional observations from a re-analysis of the deposited data

How the results depend on the processing

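Membership rests on the scaling: with the library size of all listed loci, dropped ones included, 38 loci met the rule in place of 79, while the other planned settings gave 68 to 83 and leaving out 1 control library, added after seeing the data, 67 to 97. In brackets stands the share of all tested loci called in either direction in the same setting, which moved too. It is not given for fits without 1 library. The count of members lower in DZ with SCOOP12 was 4 in Ws (1.01%). It was 2 (0.377%) with the rule's library sizes and 22 (7.3%) with the replicate block. With the block and without DZ SCOOP12 replicate 1 (chosen after seeing the data) it was 22 (8.16%). It was 0 without the 2 libraries with disagreeing names (0.508%), with replicates 1 and 3 only (0.0%), or without DZ SCOOP12 replicate 1 (0.0%). Leaving out 1 library gave 0 to 1. In proscoop12 the count was 4 (1.01%), and it was 11 with no filter (1.12%), 10 with DESeq2 (2.89%) and 30 with the block (10.8%). It was 24 with the block and without replicate 1 (9.69%), and 2 with replicates 1 and 3 only (0.351%). Without DZ SCOOP12 replicate 1 it was 10 (3.7%), and 1 to 6 without 1 library. Changed by SCOOP12 in MEZ were 5 (2.89%), and 12 with the block (7.55%). The count was 13 with the block and without replicate 1 (10.2%), 0 with replicates 1 and 3 only (0.234%), and 1 to 6 without 1 library. In DZ the count was 10, and 4 with no filter, 17 with the block, 18 with the block and without replicate 1, 4 without the 2 libraries, 0 with their labels exchanged, 0 with replicates 1 and 3 only, and 1 to 10 without 1 library. The cause of these moves was not tested, beyond the smaller number of samples where libraries were left out. The block changed no call in the genotype and interaction comparisons, which gave 0 members in every alternative run.

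For the 23 results on single members, 253 other alternatives gave 65 values no longer called and 0 reversed. The 209 fits without 1 library, all run without the block, gave 128 called, 81 not called and 0 reversed. Depth limits the low members: the lowest had a mean of 11.9 reads per library, and 3 had 0 reads in at least 1 library.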
